A study of Canis lupus familiaris with 17 samples.

Results

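The transcripts described here kept a level in scribble-silenced cells that was close to that of control cells, and stood apart in a derivative of the silenced cells that resists cell competition. Of the 21571 transcripts measured in Madin-Darby canine kidney (MDCK-II) cells, 46 met this description, 29 of them higher and 17 lower in the resistant cells. They were chosen on y = log2(RPKM + 0.1), where RPKM is reads divided by transcript length and by the total of mapped reads, averaged over the 2 libraries of a population in an experiment. A transcript was taken when its mean RPKM was 5 or more in a population over experiments 2 and 3, when scribKD differed from control by less than 0.3 in each of these experiments, and when scribRES minus scribKD was 0.5 or more in both or -0.5 or less in both. The chemokine transcript Ccl17 and names of the Slc, Col, Lam, Itg, Arhg, Kif and Myo families were left out, which removed 2 transcripts. The difference of scribKD from control in experiments 2 and 3, and those of scribRES from scribKD and control, therefore chose the transcripts and are given as a description, and nothing is read from a fit of these contrasts for the 46.

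MDCK-II is an established epithelial line from dog kidney. The line called scribKD carries a short hairpin RNA against scribble that tetracycline (Tet) switches on. Control cells were scribKD cells without Tet (scribKD-Tet), silenced cells were scribKD cells with Tet (scribKD+Tet), and resistant cells were scribRES cells with Tet (scribRES+Tet), so that all 3 populations carried the hairpin and the last 2 received Tet at 10 µg/ml from plating. The scribRES population was 1 isolate, the survivors of a long Tet culture of the hairpin line that were then grown on without Tet, and a change that arose in this isolate and a change common to resistant cells cannot be told apart. In each dish 1300000 cells were plated and RNA was taken after 67 h, which gave 6 control, 6 scribKD and 4 scribRES libraries. Experiment 1 held 2 control and 2 scribKD libraries, and experiments 2 and 3 held 2 libraries of each population. The labels do not say that the libraries of 1 experiment came from separate cultures. A p-value inside an experiment thus measures the spread between those libraries, which may be technical. A figure legend of the study counts 3 biological replicates of control and scribKD and 2 of scribRES, matching the number of experiments. Its methods speak of at least 4 replicates per condition. The fits here count every library as a replicate, so their p-values may be too small.

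Scribble is a scaffold protein of the basolateral side of epithelial cells that, with its partners, sets apical and basal polarity and restrains growth. In cell competition, cells that are viable on their own are eliminated when they meet fitter neighbours, and MDCK cells that lose Scribble are losers of this kind when wild-type cells crowd them. The scribRES cells were included to compare cells that keep the silencing but resist elimination. The transcripts named here code for secreted signals, proteins of Golgi and endosomal traffic, proteases, chromatin proteins, cytoskeletal proteins and proteins of the apical and basal membrane.

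Scrib itself (XM_003431819.1) had a mean RPKM of 28.9 ± 3.65 over the 6 control, 12.9 ± 2.69 over the 6 scribKD and 13.3 ± 1.23 over the 4 scribRES libraries (± SD). Both populations given Tet were thus below every control library. Depth ran from 12612664 to 54644201 reads on transcripts, the highest being control replicate 2 with its 2 runs summed, and experiment 1 was sequenced most deeply (median 27120435), experiment 3 less (20988428) and experiment 2 least (16368548.5). The markers of kidney tubule epithelium had 9 named transcripts, of which 8 were expressed, while Dcn, the only named transcript of the fibroblast list, did not exceed 0.056 RPKM. In bulk libraries a transcript present in fewer cells and a transcript with fewer copies per cell cannot be told apart.

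A gene name was found for 26 of the 46 transcripts, 19 higher and 7 lower in scribRES. Names of 24 came from the study's own list of transcripts that differ between scribRES and scribKD, so that having a name is not independent of the contrast that chose the 46. Of 306 transcripts that the study named in 2 lists, 34 carried a different name in each, so a name is uncertain. The 20 others are given by identifier. The 46 were modest in abundance. In control libraries of experiments 2 and 3 the median RPKM was 9.64 for the 29 higher and 15.8 for the 17 lower transcripts. It was 23.2 for the 11332 expressed transcripts. In scribRES libraries the order was the reverse, with 16.1 for the higher and 9.44 for the lower transcripts. The RPKM minimum could be met in any population, so the choice itself favours such an order, and nothing is read from it. The median length was 1163.5 bases against 1544 for the expressed transcripts, but 2332 for the higher and 732 for the lower ones. Lengths, here and below, were inferred as those that turn the RPKM of every run into whole reads. They were not taken from an annotation and may differ from the full length of a messenger. Of the 46, 10 had a library with fewer than 20 reads, 3 of them higher and 7 lower in scribRES.

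**Figure D1:**
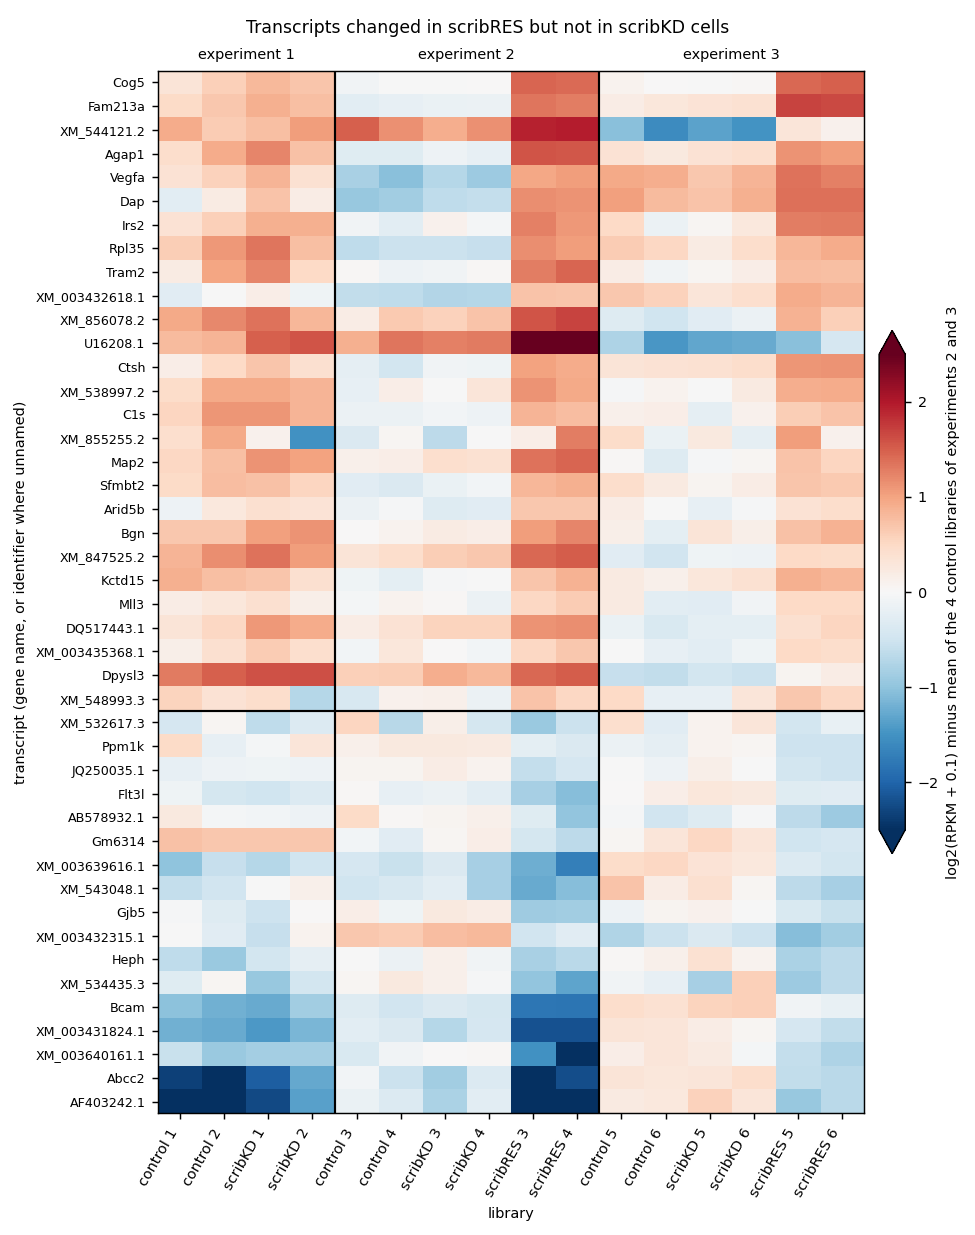
Each row is 1 of 44 of the 46 transcripts and each column 1 of the 16 libraries. Colour gives log2(RPKM + 0.1) minus the mean of the 4 control libraries of experiments 2 and 3, with differences beyond 2.5 in the end colours, and the horizontal line parts the 27 of these that are higher in scribRES from the 17 lower. The 8 control and scribKD libraries of experiments 2 and 3 are pale for most transcripts apart from a shift between these experiments, whereas the 4 libraries of experiment 1 lean towards the scribRES colours for many.

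Cog5, a subunit of the conserved oligomeric Golgi complex that tethers vesicles returning within the Golgi, gave nearly the same difference in both experiments. In experiment 2 its RPKM was 42.7 and 45.1 in control, 45.4 and 45.8 in scribKD and 125 and 121 in scribRES libraries. In the third experiment it was 48.3 and 45.7 in control, 45.4 and 46.6 in scribKD and 123 and 128 in scribRES libraries. Experiment 1 gave 56.6 and 68.5 in control and 80.2 and 73.8 in scribKD libraries. The scribRES libraries were above all 12 others, and the difference from scribKD was 1.43 in experiment 2 and 1.44 in experiment 3 on the log2 scale, a ratio of 2.71. Reads behind these values ran from 2057 to 12194 per library, so counting error was small beside the difference.

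Fam213a, a redox protein related to peroxiredoxins, behaved alike in relative terms. In experiment 2 it had 71.7 and 75.2 RPKM in control, 77.2 and 78.3 in scribKD and 219 and 209 in scribRES libraries. In the third it had 98.4 and 105 in control, 109 and 112 in scribKD and 278 and 272 in scribRES libraries. Control libraries of experiment 1 had 121 and 137 and scribKD libraries 161 and 146. All scribRES libraries were above all others, by 1.46 and 1.31 over scribKD in experiments 2 and 3 on the log2 scale. Irs2, an adaptor of the insulin and insulin-like growth factor receptors, was low throughout but stood apart as evenly. Its scribRES libraries had 8.06, 7.10, 8.20 and 8.29 RPKM, the control libraries ran from 2.72 to 5.03 and the scribKD libraries from 3.17 to 6.23. The log2 difference from scribKD was 1.15 and 1.14.

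Vegfa (AF133248.1), the secreted growth factor of endothelial cells, showed the largest difference of all higher transcripts in experiment 2 and one of the smallest in experiment 3. In experiment 2 its RPKM was 30.1 and 25.5 in control, 32.1 and 27.9 in scribKD and 103 and 109 in scribRES libraries. In experiment 3 it was 102 and 98.7 in control, 84.7 and 95.6 in scribKD and 135 and 126 in scribRES libraries, and in experiment 1 67.9 and 79.1 in control and 95.6 and 68.9 in scribKD libraries. The scribRES libraries were the highest within each experiment, but the lowest of them in experiment 2 was at nearly the level of the highest control library of experiment 3. The difference from scribKD was 1.82 in experiment 2 and 0.53 in experiment 3. A second transcript of the gene (NM_001003175.2) ran in parallel, with 1.83 and 0.48, and the smaller value kept it outside the limit of 0.5. The 2 transcripts may share reads, since how reads matching both were counted is not stated.

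Dap, a death-associated protein that restrains autophagy, followed the same course as Vegfa. In experiment 2 the RPKM was 18.4 and 19.3 in control, 22.6 and 23.5 in scribKD and 79.3 and 77.0 in scribRES libraries. The third experiment gave 71.8 and 61.8 in control, 58.5 and 65.7 in scribKD and 91.6 and 92.0 in scribRES libraries. Experiment 1 gave 29.5 and 41.1 in control and 58.2 and 40.2 in scribKD libraries. Between experiments 2 and 3 the level differed by 1.82 in control, 1.42 in scribKD and 0.23 in scribRES cells on the log2 scale, and the difference of scribRES from scribKD went from 1.76 to 0.57.

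Agap1, a GTPase-activating protein for Arf GTPases of endosomal traffic, also had its larger difference in experiment 2. There it was at 9.46 and 9.45 RPKM in control, 10.8 and 10.2 in scribKD and 34.9 and 34.6 in scribRES libraries. In experiment 3 the values were 15.1 and 13.9 in control, 15.2 and 15.6 in scribKD and 25.7 and 24.3 in scribRES libraries. Here the scribRES level was not out of reach of scribKD cells, since 1 scribKD library of experiment 1 had 27.3, and the other libraries of that experiment had 16.0, 22.5 and 19.6. Tram2, a protein of the endoplasmic reticulum translocation site, was at 6.45, 7.24, 4.49 and 4.43 RPKM in scribRES libraries, and experiment 1 held 1 control library at 5.21 and 1 scribKD library at 6.20. The transcript named Rpl35 (XM_536144.3) had a log2 difference of 1.66 in experiment 2 and 0.56 in experiment 3. At 2580 bases and 2.53 to 10.2 RPKM it is unlike the short, abundant messenger of a ribosomal protein, and the name is doubtful.

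The secreted and lysosomal proteases among the transcripts were Ctsh and C1s. Ctsh, a cysteine protease of the lysosome, was abundant. In experiment 2 it had 154 and 132 RPKM in control, 168 and 168 in scribKD and 362 and 344 in scribRES libraries. In experiment 3 it had 224 and 231 in control, 236 and 245 in scribKD and 386 and 393 in scribRES libraries. Its highest library outside scribRES was a scribKD library of experiment 1 at 293, so the scribRES libraries stood above all others. C1s, the serine protease that starts the classical complement cascade, had 17.4, 16.4, 14.8 and 15.8 RPKM in scribRES libraries and 8.21 to 10.7 in the others of experiments 2 and 3. In experiment 1 it had 14.0 and 20.8 in control and 20.6 and 17.3 in scribKD libraries, which overlapped the scribRES range.

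Chromatin proteins contributed Sfmbt2, Arid5b and Mll3. Sfmbt2, a Polycomb group protein, had 13.1, 13.7, 11.8 and 11.6 RPKM in scribRES libraries, and Arid5b, a DNA-binding partner of a histone demethylase, had 22, 22, 17.6 and 18.7. Mll3, a histone methyltransferase that acts at enhancers, had 6.53, 7.10, 6.47 and 6.49. Of these, the Mll3 libraries of scribRES were above all 12 others, whose range was 3.74 to 6.04, whereas experiment 1 libraries reached 12.6 for Sfmbt2 and 18 for Arid5b and overlapped the lower scribRES values. The log2 differences from scribKD were 0.98 and 0.55 for Sfmbt2, 0.99 and 0.52 for Arid5b, and 0.63 and 0.68 for Mll3.

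Map2 and Dpysl3, best known as microtubule-associated and cytoskeletal proteins of neurons, were higher in scribRES by 1.01 and 0.61 and by 0.61 and 0.62. Dpysl3 illustrates how the level depended on the experiment. Its RPKM was 208, 221, 80.8 and 88.2 in scribRES libraries, 116, 118, 51.9 and 50.1 in the control libraries of experiments 2 and 3, and 191 and 217 in the control libraries of experiment 1. Within an experiment scribRES was the highest population, but the control libraries of experiment 1 were far above the scribRES libraries of experiment 3. Also higher in scribRES were Bgn, a small proteoglycan of the matrix, Hs6st2, which sulfates heparan sulfate chains, and Kctd15, with mean log2 differences of 0.75, 0.70 and 0.66. Hs6st2 is named after its values were seen.

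Among the transcripts lower in scribRES, Bcam, a laminin-binding adhesion protein of the basal membrane, was the most abundant. In the second experiment it was at 149 and 133 RPKM in control, 145 and 138 in scribKD and 53.0 and 52.8 in scribRES libraries. In the third it was at 251 and 241 in control, 275 and 283 in scribKD and 176 and 163 in scribRES libraries. The scribRES libraries were the lowest in each experiment, by -1.42 and -0.72 on the log2 scale. Experiment 1, at 91.6 and 80.8 in control and 77.7 and 102 in scribKD libraries, lay between the 2 pairs of scribRES libraries.

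Abcc2, an apical exporter of conjugated organic anions in kidney and liver epithelium, had the largest negative difference of the named transcripts and the fewest reads, 2 to 107 per library. In experiment 2 its RPKM was 4.86 and 3.52 in control, 2.77 and 4.04 in scribKD and 0.174 and 1.03 in scribRES libraries. In experiment 3 it was 6.42 and 6.30 in control, 6.36 and 7.03 in scribKD and 3.30 and 3.16 in scribRES libraries. The log2 differences were -2.63 and -1.03. Experiment 1 was lower still than the scribRES libraries of experiment 3 in both of its populations, at 0.933 and 0.616 in control and 1.15 and 2.06 in scribKD libraries.

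Heph, a copper-dependent ferroxidase that passes iron out of cells, had nearly the same value in all scribRES libraries, 8.96, 9.86, 9.05 and 9.95 RPKM. The other libraries of experiments 2 and 3 had 14.3 to 20.6, without overlap, and the 4 of experiment 1 had 8.25 to 13.5, with overlap. Gjb5, a connexin of gap junctions, was at 23.0, 23.4, 32.9 and 28.9 in scribRES libraries and at 29.8 to 50.3 in the others. Flt3l, the ligand of the Flt3 receptor, was at 7.95, 6.69, 11.5 and 11.6 in scribRES libraries and at 9.98 to 17.1 in the others. The overlap, for 1 scribRES library of experiment 3 for Gjb5 and both for Flt3l, came from libraries of experiment 1. In experiments 2 and 3 the control and scribKD libraries had at least 39.1 for Gjb5 and 11.8 for Flt3l, above every scribRES library.

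Ppm1k and the transcript named Gm6314 were the named transcripts whose scribRES libraries lay below all 12 others. Ppm1k, the mitochondrial phosphatase that switches on the breakdown of branched-chain amino acids, had 26.8, 24.5, 22.2 and 22.2 RPKM in scribRES libraries against 27.0 to 44.3 elsewhere. The margin was narrow. Gm6314, a mouse gene model of unknown role, had 12, 10.4, 11.6 and 12.2 against 13.5 to 27.2. Its libraries of experiment 1, at 27.2, 26.4, 26.3 and 26.3, were the farthest from scribRES.

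Of the 20 transcripts without a name, XM_544121.2 and XM_003432618.1 were the highest in scribRES relative to scribKD, with mean log2 differences of 1.26 and 0.97. XM_544121.2 had 33.2, 34.3, 10.7 and 9.40 RPKM in scribRES libraries, and its control and scribKD libraries ran from 16.5 to 24.6 in experiment 2 and from 2.85 to 4.15 in experiment 3. The scribRES libraries of experiment 3 were thus below every control and scribKD library of experiment 2. AF403242.1 and XM_003640161.1 were the lowest, with mean log2 differences of -1.92 and -1.45. AF403242.1 had 1.67, 1.84, 8.37 and 10.1 RPKM in scribRES libraries and 9.32 to 24.0 in the other libraries of experiments 2 and 3, and in experiment 1 it had 2.81 and 2.5 in control and 3.29 and 6.27 in scribKD libraries. As for Abcc2, both populations of experiment 1 lay within the range of the scribRES libraries.

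**Figure D2:**
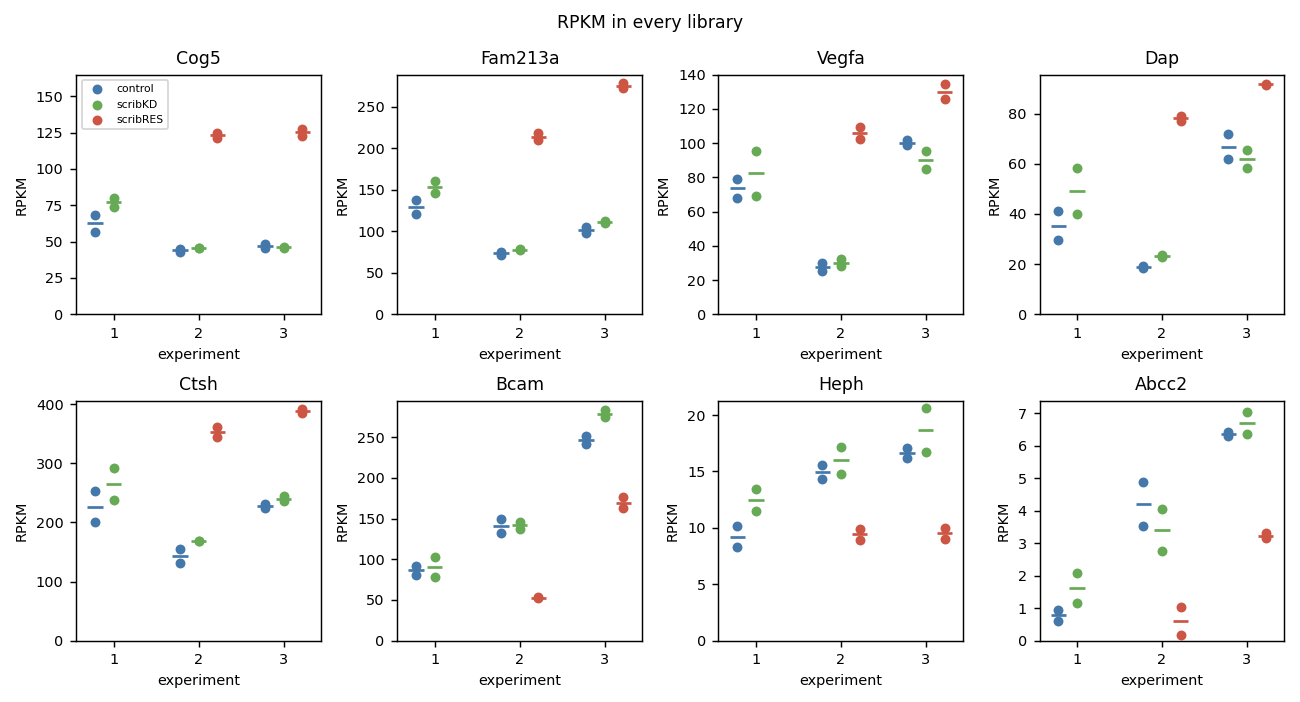
RPKM on a linear axis from 0 is plotted against the experiment for 8 of the named transcripts. Points are single libraries and short lines the mean of the 2 libraries of a population, with no scribRES library in experiment 1. The scribRES points are apart from the other 2 populations within experiments 2 and 3, and for Heph and Abcc2 the points of experiment 1 lie at or near the scribRES level.

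Across the 46, as over all expressed transcripts, the difference was larger in the second experiment than in the third. The median scribRES minus scribKD of the 29 higher transcripts was 0.98 in experiment 2 and 0.63 in experiment 3, and that of the 17 lower ones -0.87 and -0.66. The size was larger in experiment 2 for 35 of the 46, beside 70.4% of all expressed transcripts, whose median absolute difference was 0.28 in experiment 2 and 0.14 in experiment 3. The smallest differences fell close to the limits that chose them. Just inside, Arid5b, Kctd15 and XM_003432618.1 had 0.516, 0.517 and 0.517 in their lesser experiment, and Gjb5, XM_532617.3 and XM_003432315.1 had -0.519, -0.520 and -0.530. Just outside were 3 unnamed transcripts at 0.497, 0.485 and 0.485, and 3 at -0.480, -0.456 and -0.449. For the difference of scribKD from control, Abcc2, Dap and Bgn were just inside at 0.298, 0.290 and 0.289 and the nearest left out were at 0.303, 0.306 and 0.316. For the RPKM minimum, Abcc2, XM_855255.2 and Tram2 were inside with 5.28, 5.50 and 5.65 in their highest population, and Tnrc6c, an unnamed transcript and Fhod1 outside with 4.90, 4.77 and 3.99.

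**Figure D3:**
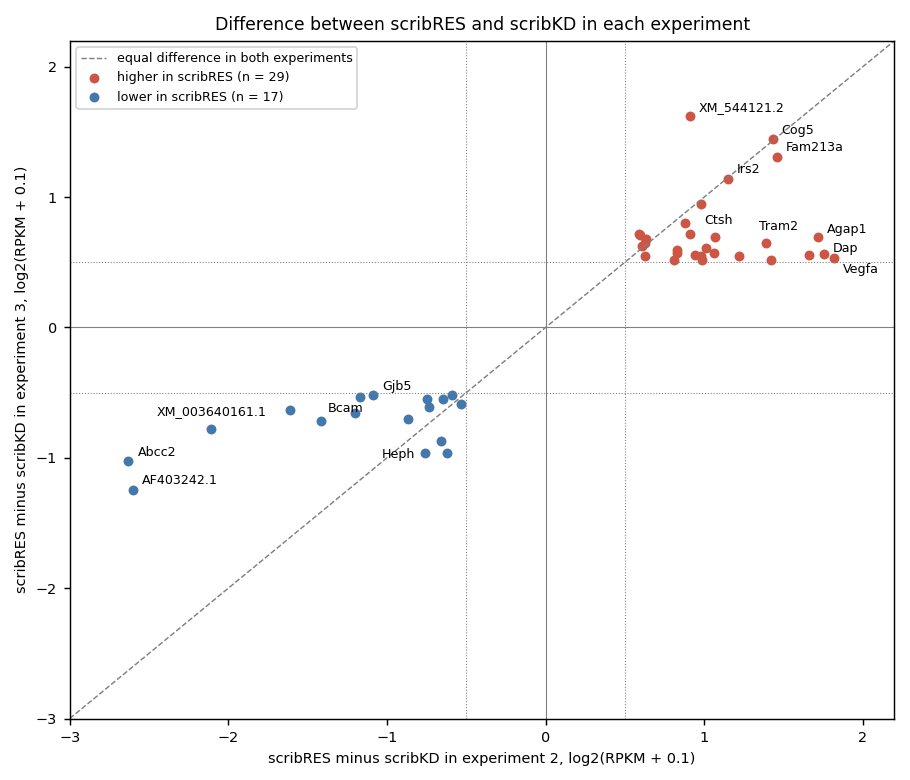
Scatter of scribRES minus scribKD, on log2(RPKM + 0.1), in experiment 2 (horizontal axis) and experiment 3 (vertical axis) for the 46 transcripts. Dotted lines mark the limits of 0.5 and -0.5 and the dashed line equal differences. Cog5, Fam213a and Irs2 lie at the dashed line, and Vegfa, Dap, Agap1, Bcam and Abcc2 far from it on the side of experiment 2.

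Of all 11332 expressed transcripts, 332 (2.93%) were 0.5 or more from scribKD in the same direction in both experiments, and among the 5278 with scribKD within 0.3 of control 48 were (0.909%), the 46 and the 2 left out by name. The scribRES libraries lay outside the range of the 8 control and scribKD libraries of experiments 2 and 3 for 28 of the 46, against 6.39% of expressed transcripts. The choice used that contrast, and nothing is read from the share. In limma fits of all libraries, scribRES against scribKD called 10 of the 31 transcripts of the set that were tested, beside 1.46% of all tested. With the experiment as a term it called 30, beside 7.32%, and with the replicate number as a block 29, beside 3.91%. Against control, 15 of 32 were called (7.89% of all tested), and 28 with the experiment as a term (14.7%) and 25 with the number as a block (10.9%). The choice used these contrasts and all but fixed such calls, so nothing is read from these counts.

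Experiment 1 did not enter the choice, and its libraries show whether the 46 were also alike in control and scribKD cells there. In a limma fit of its 4 libraries, 41 of the 46 passed the filter on low values and 3 were called at an adjusted p under 0.05 and a log2 fold change beyond 0.5, all higher in scribKD, beside 13.0% of all 10943 tested (5.01% higher). The 3 called were unnamed: U16208.1, by 0.71 ± 0.10 (SE, limma adjusted p = 0.014), DQ517443.1, by 0.59 ± 0.10 (limma adjusted p = 0.021), and XM_543048.1, by 0.58 ± 0.11 (limma adjusted p = 0.023). For these the scribRES direction differs: the first pair was higher and XM_543048.1 lower in scribRES. U16208.1 had 8.56 and 8.92 RPKM in control and 14.0 and 14.8 in scribKD libraries of experiment 1, but its reads were few, 10 to 133 per library over all experiments. DQ517443.1 had 450 and 518 against 766 and 688, and XM_543048.1 14.6 and 15.8 against 21.8 and 23.9. Bgn, at 0.40 ± 0.090 (limma adjusted p = 0.038), passed the p but not the fold limit. At an unadjusted p under 0.05 there were 9 of 41, beside 36.1% of all tested. The 41 were chosen for a small difference in this contrast in other experiments, and the transcripts tested as a whole were not. A lower share among the 41 was thus favoured by the choice, and nothing is read from it.

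Within 0.3 of control in experiment 1 were 31 of the 46, 67.4%, beside 63.6% of all expressed transcripts and 83.3% of the expressed transcripts that were within 0.3 in experiments 2 and 3. The share was thus near the one over all expressed transcripts and below that of transcripts flat in the other experiments. Of the 15 beyond it, 11 had the higher level in scribKD. Of the 29 transcripts higher in scribRES, 26 had a scribKD level above control in experiment 1, beside 40.2% of the transcripts flat in experiments 2 and 3, and of the 17 lower in scribRES 7 did. The libraries did not show this evenly. Of the 29, scribKD replicate 1 was above control replicate 1 in 25 but scribKD replicate 2 above control replicate 2 in 11, and both scribKD libraries were above both controls in 10, beside 20.1% of the flat transcripts. Leaving out a library of experiment 1, a choice made after seeing the data, gave 20 without scribKD replicate 1, 18 without control replicate 1, and 25 without either of the others, and for the 17 it gave 11, 11 and 6. Of the flat transcripts, 39.4% to 41.0% had scribKD above control with a library left out. Largest among the named and tested were Dap at 0.47 ± 0.23, Heph at 0.44 ± 0.15, Map2 at 0.43 ± 0.12 and Irs2 at 0.41 ± 0.14, with limma adjusted p of 0.20, 0.092, 0.059 and 0.092, followed by Bgn. Dap, Heph, Map2 and Irs2 did not pass the test. Abcc2 was among the 5 not tested, with a difference of 0.93 on few reads.

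**Figure D4:**
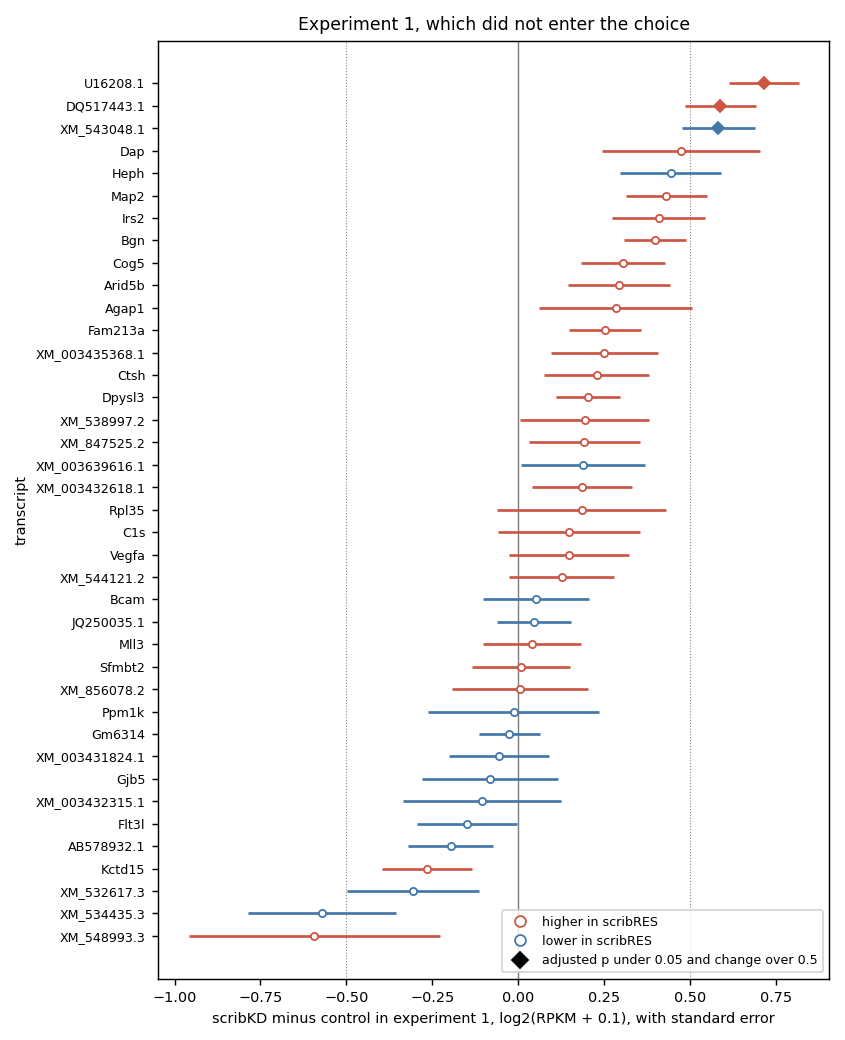
Points give scribKD minus control on log2(RPKM + 0.1) in experiment 1, with bars of 1 standard error from limma (2 libraries against 2), for 39 of the 41 tested transcripts in order of the difference. Filled diamonds are the 3 called. Most transcripts higher in scribRES lie to the right of 0, and most bars stay within the dotted lines at 0.5 and -0.5.

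The level of the 46 in experiment 1 was itself displaced. In 25 of the 29 higher transcripts both control and scribKD were above their own mean of experiments 2 and 3, beside 32.2% of the transcripts flat in those experiments, and in 13 of the 17 lower ones both were below it, beside 43.0%. The median displacement of the higher transcripts was 0.63 in control and 0.76 in scribKD on the log2 scale, and that of the lower ones -0.27 and -0.46, against 0.01 and -0.08 over the flat transcripts. Since the choice used control and scribKD libraries of experiments 2 and 3, this is a description with no test. The 4 libraries of experiment 1 reached the scribRES range for 33 of the 46, and for 13, 8 higher and 5 lower, the scribRES libraries were outside it (15.5% of expressed transcripts). Outside all 12 control and scribKD libraries were 11 of the 46, 8 higher and 3 lower, against 1.82% of expressed transcripts. They were Cog5, Fam213a, Vegfa, Dap, Irs2, Ctsh, Mll3 and XM_003432618.1, all higher, and Ppm1k, Gm6314 and JQ250035.1, all lower. For the 35 others, at least 1 library of control or scribKD cells reached a level found in scribRES cells. The choice used the scribRES libraries and 8 of these 12 others, so nothing is read from these shares. The RPKM minimum of 5 was met in scribRES only for 8 of the 46, Irs2 and Mll3 among them. It was met in control or scribKD but not in scribRES for 3. The scribRES cells were not part of experiment 1, and how they would have stood in it was not measured.

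The level also depended on the experiment within experiments 2 and 3. A limma fit of the 8 control and scribKD libraries, with population as a term, tested 39 of the 46 and called 20 between the experiments, 12 higher and 8 lower in experiment 3. This was 51.3%, beside 27.1% of all 11365 tested, of which 13.9% were higher and 13.1% lower. The choice used these 8 libraries, so the calls are given as a description and nothing is read from the share. Vegfa was higher in experiment 3 by 1.72 ± 0.087 (SE) and Dap by 1.62 ± 0.093, both called, while their shift in scribRES cells was 0.30 and 0.23. Agap1, called at 0.58 ± 0.064, moved by -0.47 in scribRES cells, and Rpl35, called at 1.02 ± 0.12, by -0.22. Bcam, called at 0.89 ± 0.061, and Abcc2, called at 0.79 ± 0.16, moved farther in scribRES cells, by 1.68 and 2.58. Dpysl3 fell by 1.28 ± 0.057 in control and scribKD cells and by 1.34 in scribRES cells. Cog5, at 0.05 ± 0.052, Heph, at 0.19 ± 0.084, and Bgn, at -0.02 ± 0.089, were not called. A smaller scribRES difference in experiment 3 thus went with control and scribKD levels that had moved towards the scribRES level for Vegfa and Dap. For Agap1 and Rpl35 it went with such a move and with a scribRES level that had fallen towards the others. For Bcam and Abcc2 it went with a scribRES level that had moved towards the others. Depth and any other property that varied between the experiments cannot be told apart from the experiment itself.

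**Figure D5:**
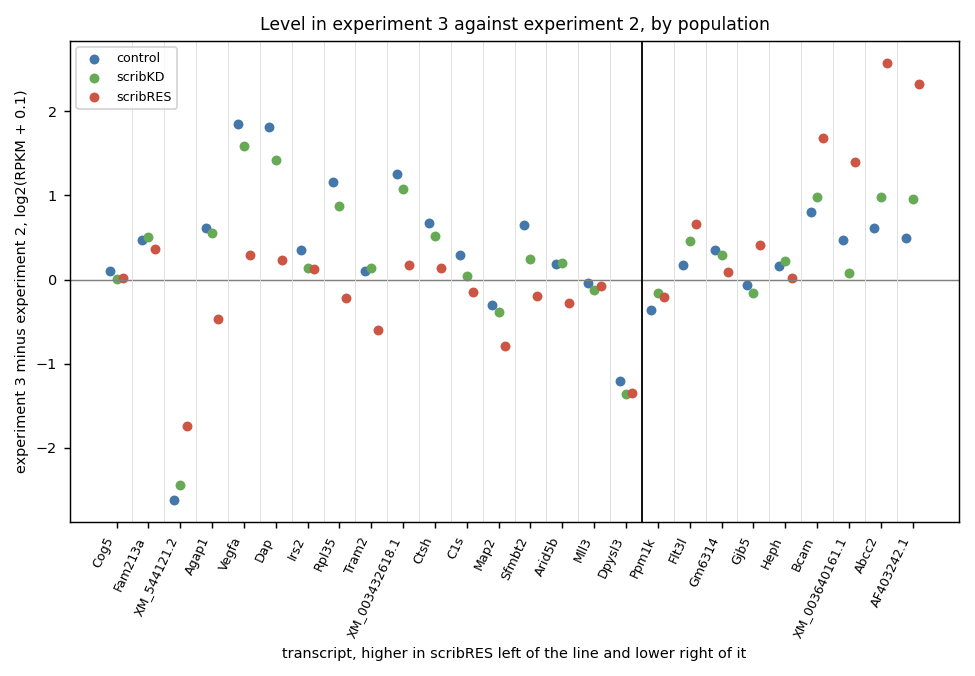
The vertical axis is the level in experiment 3 minus that in experiment 2, on log2(RPKM + 0.1), for the 26 transcripts described one by one, with a point for each population. Vegfa, Dap and XM_003432618.1 have control and scribKD points far above the scribRES point, and Bcam, Abcc2 and AF403242.1 the reverse, while the points of Cog5, Fam213a and Dpysl3 are close together.

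The groups to which the named transcripts belong were small. In a list of secreted ligands and inhibitors, 18 transcripts were named and 14 tested between scribRES and scribKD, of which 1 was called higher (4 higher and 1 lower with the experiment as a term). Vegfa and Flt3l were its members among the 46, in opposite directions. Of chromatin regulators and coactivators, 15 of 18 were tested and 3 called higher (8 higher with the experiment as a term), and 3 were among the 46. Of proteases and complement proteins, 5 of 8 were tested and 2 called higher, and of cytoskeletal and YAP target genes 6 of 9 were tested, of which 2 were called higher and only with the experiment as a term. Among all tested transcripts 0.561% were called higher and 0.899% lower, or 4.40% and 2.92% with the experiment as a term. The lists were drawn up with results of these data known, and most of their names come from lists of transcripts that the study had called, so these shares are no independent evidence. None of the 46 belonged to the lists of immediate early and stress factors, BMP and TGF-beta signalling, tubulins, lipid and carnitine enzymes, or interferon and antigen presentation. The 5 tubulins were all tested, with a median of -0.64 on the log2 scale, and all 5 were called lower, but only with the experiment as a term. In the RefSeq gene order, 21 of the named transcripts were found on 16 chromosomes, and 0 pairs had fewer than 5 genes between them.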

How the data were processed

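RNA from 16 libraries of MDCK-II cells was sequenced in 17 runs. The authors trimmed reads (cutadapt 1.0 in the submitters' processing notes), mapped them with TopHat2 2.0.6 to the dog genome CanFam3.1, counted reads overlapping transcripts and deposited RPKM, 1 table of 21571 transcripts per run. The study's own calls came from a count-based test. The population and experiment of each library came from the labels.

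The 2 runs of control replicate 2 differed by less than other replicates (chi-square per transcript 1.12, against 25.3 between control replicates 1 and 2), were averaged as RPKM and were counted as 1 library. Values of all 18873 transcripts above 0 came out as whole reads within 0.05, and these recovered reads give the depth, from 12612664 to 54644201 per library with the 2 runs summed. RPKM is divided by transcript length and library total but carries no further scaling, so abundant transcripts can shift the rest. Median-ratio scaling moved a library by -0.03 to 0.05 on the log2 scale. How reads that match several transcripts were counted is not given in the sources used here.

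Tests used limma 3.58.1 (lmFit, eBayes with trend) in R 4.3.3 on log2(RPKM + 0.1), two-sided, with Benjamini-Hochberg adjustment over all transcripts tested. A transcript was tested when every library of at least 1 condition was above 5 RPKM and these lay within 2-fold, and calls needed an adjusted p below 0.05 with a log2 fold change beyond 0.5 either way. Fold changes on this scale understate those of low transcripts. The fit was also run on simulated reads, drawn independently for each library. That simulation held no shared deviation of libraries within an experiment, so it does not bear on p-values where libraries deviate together. Counts were made in Python 3.11.15 (pandas 2.3.3, numpy 2.4.6), and figures with matplotlib 3.10.9.

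The 46 transcripts, lists and tests were chosen with earlier results of these data known. Named were the 12 named transcripts highest and the 12 lowest in scribRES minus scribKD, every list member, the 2 highest and 2 lowest unnamed transcripts, and those nearest to the limits. Names came from a RefSeq gene table (assembly UU_Cfam_GSD_1.0, 485 transcripts), then from the study's lists (1343 and 180), 9.31% of all. One named transcript is counted but not reported here. No coordinates are given, since that assembly is not the build of the files. Same-numbered control and scribKD libraries deviated together (correlation 0.28 to 0.74 over 6 pairs, and 0.10 to 0.55 over 4 pairs of scribRES and scribKD), as did other libraries of the same experiment, so fits with the number or the experiment as a block are given. The alternatives were other pseudocounts, RPKM minimums, limits, scaling, trend, blocks, runs, recovered reads in limma-voom, and leaving out each library.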

Additional observations from a re-analysis of the deposited data

Results flagged for a closer look

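Of 78 groups of libraries examined, 1 library lay far from the rest of its group in 3. A group pooled the libraries of a population over the experiments, whose levels differed, so no rate expected by chance is given. Tram2 had 5.21 RPKM in control replicate 2 against 2.36 to 3.02 in the other control libraries, and 6.20 in scribKD replicate 1 against 2.45 to 3.68 in the other scribKD libraries, both in experiment 1. Mll3 had 7.10 RPKM in scribRES replicate 4 against 6.47 to 6.53 in the other scribRES libraries.

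For 3 transcripts both scribKD libraries of experiment 1 lay on one side of both controls, and those of another experiment on the other side. Arid5b had a scribKD minus control of 0.29 on the log2 scale in experiment 1, and of -0.22 and -0.21 in experiments 2 and 3. Kctd15 had -0.27 in experiment 1, and 0.15 and 0.16 in experiments 2 and 3. The transcript named Gm6314 had -0.025 in experiment 1 and 0.28 in experiment 2. The difference between experiments was not tested for any of them.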

How the results depend on the processing

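The set of 46 depended on the limits that chose it. With an RPKM minimum of 1 it held 69 and with one of 10 it held 32. With scribKD within 0.2 of control 22 remained, and with a scribRES difference of 0.7 or more 13. With 0.3 required in experiment 1 too 31 remained, and under median-ratio scaling 42 were chosen, 39 of them from the 46. Leaving out 1 of the 12 libraries of experiments 2 and 3 gave 35 to 52, and between 32 and 45 of the 46. The number called in experiment 1, 3 in the fit as reported, was 2 with the replicate block, which took the count over all transcripts from 1419 to 940, and 2 without the filter on low values. Leaving out a library gave 1 to 5: 1 without control replicate 1, 5 without control replicate 2 and 1 without scribKD replicate 2, and without scribKD replicate 1 the count over all transcripts was 721. The same numbers deviated in opposite ways in that experiment, and the crossed pairing, chosen after seeing the data, called 4 (1777 over all). Between experiments 2 and 3 every alternative and every library left out gave 20 or 21. For scribRES against scribKD, a contrast the choice used, the blocks raised the count of the 46 called from 10 to 29 (number) and 30 (experiment), and over all transcripts from 151 to 404 and 757. Against control, also used, they raised it from 15 to 25 and 28, and over all transcripts from 815 to 1129 and 1513. Apart from the counts within gene lists given above, the blocks moved no other count over the 46 or over all transcripts by over 1.5 times. Of 264 recomputed differences of named transcripts 0 reversed and 5 moved by more than the spread between replicates, all at a pseudocount of 1, and the ratio to the reported value was 0.645 to 1.28. Depth limits the shortest and lowest transcripts: 10 of the 46 had a library under 20 reads, and 4 were under 100 bases long.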
